A study of Mus musculus with 21 samples.

Results

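Lidocaine blocks the voltage-gated sodium channels that start the action potential of heart muscle and nerve, and serves as an anti-arrhythmic drug and a local anaesthetic. The data described here compare the 3 heart libraries labelled as treated with lidocaine with the 3 libraries labelled as resected without a drug, 6 of the 21 libraries in the study. Of 18762 genes with deposited values, 12170 reached 1 FPKM in at least 3 of these 6 libraries and were tested. FPKM counts sequenced fragments relative to transcript length and to all mapped fragments of the library. All animals were ICR mice, an outbred stock, whose ventricular apex had been cut away at postnatal day 1, and RNA came from the heart apex at postnatal day 7. The lidocaine group received subcutaneous injections on 7 consecutive days after resection, as did 5 groups of 3 libraries given isoproterenol, amiodarone, metoprolol, propranolol or ivabradine. The 3 control libraries are listed with the same 7 days of injection. The labels give no doses, no account of what the controls were injected with and no sex, and every group used here carried the resection, so no value stands for an unoperated heart. Whether the 3 libraries of each group stand for 3 mice is not stated. The p-values here therefore reflect only how far libraries scatter within their groups, pooled over all 7 groups, and that scatter may be technical.

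In the newborn heart, noradrenaline and adrenaline act on beta receptors that raise cyclic AMP. Cyclic AMP activates protein kinase A, which phosphorylates the transcription factor CREB, and CREB binds DNA at sites with the core TGACG, in full TGACGTCA. Its targets are switched on within minutes to hours and include the Nr4a nuclear receptors and several brakes on the same pathway, such as phosphodiesterases that break down cyclic AMP. Calcium entry and growth factor signals reach many of the same genes, which are called immediate early genes.

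Many of the largest rises between control and lidocaine hearts were of such genes. The stretches before the start sites of 4 that rose are shown, 2 from among the 15 largest rises (Nr4a1 and Nr4a3) and 2 with smaller rises (Dusp1 and Maff), because they hold the CREB core, in capitals where it reads TGACG, or CGTCA for the opposite strand. Each runs from 250 bases before a RefSeq start site to the base before it, 5′ to 3′ along the gene, in build GRCm38.p6. They lie at chr15:101266596-101266845 for Nr4a1 and chr4:48045055-48045304 for Nr4a3, both on the plus strand, at chr17:26508473-26508722 on the minus strand for Dusp1, and at chr15:79347270-79347519 on the plus strand for one of the starts of Maff.
Nr4a1: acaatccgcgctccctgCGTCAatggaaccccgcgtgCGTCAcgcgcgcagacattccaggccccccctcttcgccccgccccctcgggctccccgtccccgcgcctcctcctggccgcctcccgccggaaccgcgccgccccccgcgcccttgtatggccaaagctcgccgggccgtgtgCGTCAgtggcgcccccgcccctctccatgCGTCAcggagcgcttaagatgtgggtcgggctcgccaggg
Nr4a3: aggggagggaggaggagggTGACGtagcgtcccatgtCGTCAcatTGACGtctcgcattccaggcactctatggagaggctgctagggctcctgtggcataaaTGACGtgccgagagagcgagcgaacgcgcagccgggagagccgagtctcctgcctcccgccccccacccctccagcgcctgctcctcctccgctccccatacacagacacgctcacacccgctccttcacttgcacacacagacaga
Dusp1: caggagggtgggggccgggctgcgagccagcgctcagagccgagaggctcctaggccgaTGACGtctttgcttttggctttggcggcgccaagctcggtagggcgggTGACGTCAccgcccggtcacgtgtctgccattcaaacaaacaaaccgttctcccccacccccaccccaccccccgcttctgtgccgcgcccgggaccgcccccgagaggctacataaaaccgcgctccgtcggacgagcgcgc
Maff: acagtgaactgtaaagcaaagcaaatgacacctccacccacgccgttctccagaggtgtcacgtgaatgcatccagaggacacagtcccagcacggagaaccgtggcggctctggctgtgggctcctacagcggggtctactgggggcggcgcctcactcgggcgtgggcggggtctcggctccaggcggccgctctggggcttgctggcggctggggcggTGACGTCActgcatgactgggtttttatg
The Nr4a1 stretch held 4 copies of the core, all on the reverse strand, and that of Nr4a3 held 3 forward and 1 reverse. Dusp1 and Maff each had 1 full TGACGTCA, in which 2 copies of the core, 1 per strand, overlap.
Over windows of 300 bases (250 before the start and 50 after it), TGACG stood on either strand in 20.8% of 32851 RefSeq windows and TGACGTCA in 1.79%. Of the 9707 tested genes with a window, 35.4% had the core and 3.41% the full site in at least 1. Of the 15 genes with the largest rises after lidocaine, 12 had a window and 9 of these had the core, none the full site; of the 15 with the largest falls, 11 had a window and 1 had the core. The shares with the core were 41.7% over all genes that were higher in lidocaine hearts and 31.5% over all that were lower. A match describes the letters in the window and does not show that CREB was bound there.

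Nr4a1, a nuclear receptor that acts as a transcription factor without a known hormone, measured 7.88, 6.73 and 8.40 FPKM in control libraries 1 to 3 and 83.6, 171 and 133 FPKM in lidocaine libraries 1 to 3. Every lidocaine library lay several times above every control library, a difference of 3.85 ± 0.43 (SE) on the log2(FPKM + 1) scale (limma adjusted p = 9.3e-06). The same scale and test hold for every difference below unless another is named. Its relative Nr4a3 measured 0.31, 0.37 and 0.30 FPKM in controls and 5.92, 13.6 and 6.36 FPKM after lidocaine (2.77 ± 0.35, limma adjusted p = 2.8e-05). Nr4a3 was tested because of its lidocaine libraries alone, as no control reached 1 FPKM. Nr4a2, the remaining member of this receptor family, went from 0.82, 1.24 and 1.43 FPKM to 1.84, 5.6 and 3.47 FPKM (1.03 ± 0.29, limma adjusted p = 0.010). Lidocaine library 2 was the highest for all 3 receptors, and no groups overlapped; without that library the limma adjusted p of Nr4a2 was 0.071.

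Irs2, an adaptor that carries the insulin receptor's signal and is a known CREB target in other tissues, measured 1.62, 2.01 and 2.23 FPKM in controls and 19.8, 32.8 and 30.2 FPKM after lidocaine (3.25 ± 0.36, limma adjusted p = 8.6e-06). Sik1, a kinase that switches off the coactivators of CREB, measured 8.27, 8.11 and 8.89 FPKM in controls and 55.2, 75.3 and 65.1 FPKM after lidocaine (2.80 ± 0.23, limma adjusted p = 4.7e-07). Per1, a repressor in the circadian clock, measured 10.5, 9.58 and 9.13 FPKM against 38.6, 52.0 and 58.3 FPKM (2.22 ± 0.19, limma adjusted p = 7.9e-07). The control libraries of these genes lay close together, and all lidocaine values stood clear of them. Atf3, a stress-induced transcription factor, measured 4.00, 4.73 and 8.21 FPKM in controls and 22.0, 26.0 and 33.3 FPKM after lidocaine (2.11 ± 0.31, limma adjusted p = 9.5e-05). Dusp5, a nuclear phosphatase that turns off the kinase ERK, rose by 1.78 ± 0.22, and Dusp1, a phosphatase of the stress kinases, by 1.05 ± 0.09. Among transcription factors, Fosl2, a partner of Jun, rose by 1.64 ± 0.25, Maff by 1.13 ± 0.10 and Klf4 by 0.78 ± 0.07. The rises of these 5 genes had limma adjusted p-values between 6.8e-07 and 0.00014.

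Of 28 tested genes listed as immediate early genes or CREB targets, 19 rose and none fell, with a median difference of 0.76. Over all 12170 tested genes, 10.8% were called higher and 27.1% lower, 37.9% in all, with a median difference of −0.10. Called means a Benjamini-Hochberg adjusted p under 0.05 in limma. The smaller rises included Fos, which measured 1.91, 4.33 and 5.29 FPKM in controls and 7.07, 9.95 and 13.1 FPKM after lidocaine (1.22 ± 0.38, limma adjusted p = 0.017), a call lost without control library 1 or without lidocaine library 3 (limma adjusted p up to 0.085). Its partner Jun was not called, at 70.0, 38.7 and 54.8 FPKM against 43.3, 43.1 and 39.3 FPKM, where control library 2 fell below all lidocaine libraries (−0.33 ± 0.16, limma adjusted p = 0.10). The list therefore held genes that rose many-fold beside 9 members that were not called.

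**Figure D1:**
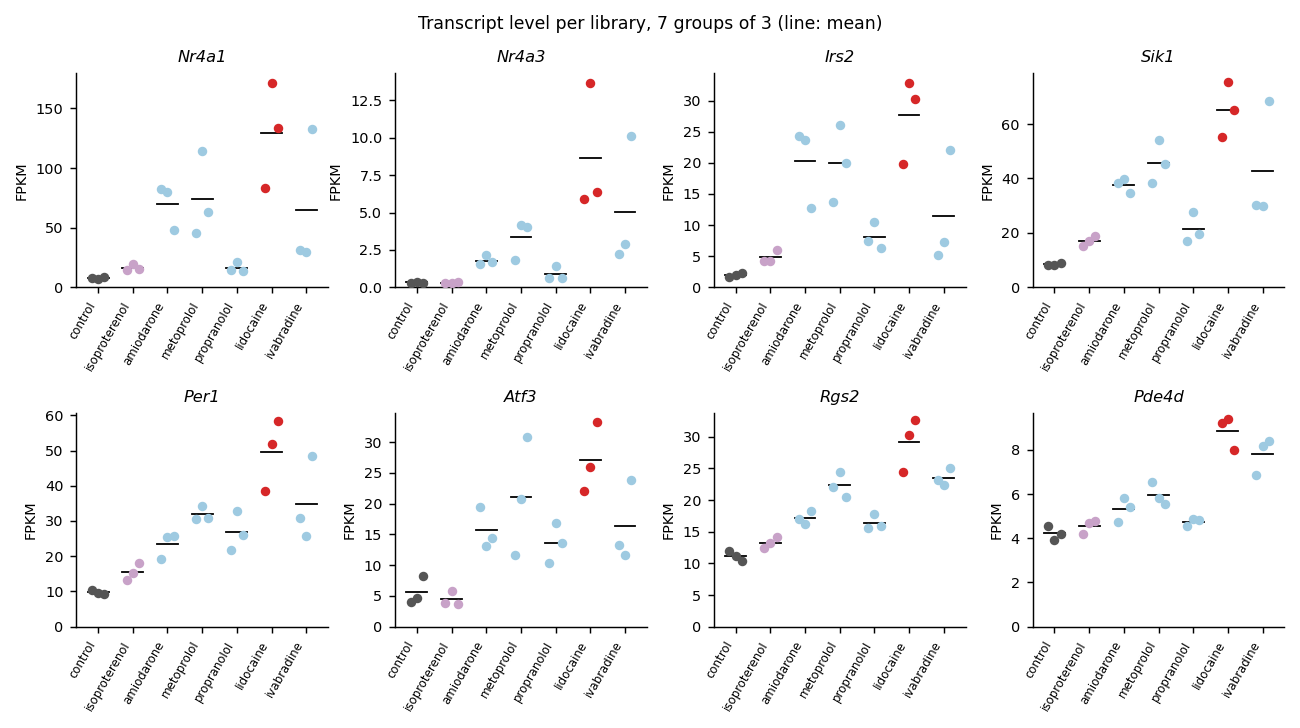
FPKM of Nr4a1, Nr4a3, Irs2, Sik1, Per1, Atf3, Rgs2 and Pde4d in all 21 libraries on linear axes, with 1 point per library, a line at each group's mean and the 7 groups along the horizontal axis. For Nr4a1 the lidocaine libraries reached 83.6 to 171 FPKM and the controls 6.73 to 8.40 FPKM, and ivabradine library 3, at 133 FPKM, sat within the lidocaine range.

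The other large rises were of genes with varied roles. Nt5c1a, an enzyme that makes adenosine from AMP, measured 1.27, 1.07 and 0.95 FPKM in controls and 5.42, 8.34 and 4.83 FPKM after lidocaine (1.75 ± 0.25, limma adjusted p = 8.2e-05). Gem, a small GTP-binding protein that restrains L-type calcium channels, measured 2.80, 3.01 and 2.75 FPKM against 8.50, 15.9 and 11.0 FPKM (1.69 ± 0.24, limma adjusted p = 6.6e-05). Tmem100, a membrane protein of blood vessels, measured 11.7, 11.1 and 10.4 FPKM against 30.8, 41.1 and 37.9 FPKM (1.63 ± 0.14, limma adjusted p = 6.8e-07). None of these groups overlapped. Pakap, which encodes an anchor for protein kinase A, rose by 1.54 ± 0.19, the secreted protease Adamts1 by 1.51 ± 0.20 and the nuclear protein Csrnp1 by 1.44 ± 0.19, with limma adjusted p-values of at most 4.3e-05. Upk3b, a gene of the epicardium and other mesothelium, measured 1.61, 3.23 and 0.48 FPKM in controls and 5.31, 7.67 and 5.51 FPKM after lidocaine (1.48 ± 0.49, limma adjusted p = 0.024). That call rested on single libraries, with a limma adjusted p of 0.12 without control library 3 and 0.082 without lidocaine library 2.

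Of 25 tested genes of the beta-adrenergic pathway, 10 rose and 5 fell, with a median of 0.09. Rgs2, which shortens signalling by G proteins, measured 12, 11.2 and 10.4 FPKM in controls and 24.4, 30.3 and 32.7 FPKM after lidocaine (1.30 ± 0.09, limma adjusted p = 2e-07). The phosphodiesterase Pde4d measured 4.56, 3.94 and 4.19 FPKM against 9.22, 9.42 and 7.99 FPKM (0.92 ± 0.08, limma adjusted p = 1.4e-06). The related Pde4b measured 14.7, 13.2 and 14 FPKM against 26.6, 28.7 and 25.6 FPKM (0.91 ± 0.08, limma adjusted p = 1.3e-06). No lidocaine library of these 3 genes came near the control range. Adcy5, an adenylyl cyclase that makes cyclic AMP in heart muscle, rose from 21.7, 17.0 and 19.6 FPKM to 31.4, 33.7 and 32.0 FPKM (0.71 ± 0.09, limma adjusted p = 3.3e-05). Arrb2, an arrestin that uncouples receptors, fell by 0.62 on this scale, and Gnas, the stimulatory G protein subunit, by 0.30. The receptor Adrb1 itself was not called, with a difference of 0.09.

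The targets of lidocaine are sodium channel subunits, and 3 of those tested are given here. Scn4a, the skeletal muscle pore subunit, measured 1.27, 1.25 and 1.32 FPKM against 1.76, 2.01 and 1.58 FPKM (0.29 ± 0.10, limma adjusted p = 0.027). The call of Scn4a was lost when single libraries were left out, with limma adjusted p-values up to 0.12, and at 0.13 after correction for transcript length and GC content. Scn7a, at 1.53 to 1.97 FPKM over the 6 libraries, and Scn10a, at 0.49 to 1.63 FPKM, were not called and overlapped between groups.
Of 11 tested partners of the sodium channel, 27.3% were called, below the 37.9% of all tested genes: 3 rose and none fell. They were Gpd1l (0.30 ± 0.06, limma adjusted p = 0.0018), which affects channel transport to the membrane, the membrane anchor Ank2 (0.28 ± 0.08, limma adjusted p = 0.0090) and the desmosome protein Pkp2 (0.20 ± 0.07, limma adjusted p = 0.038). Gpd1l alone kept its call under all alternatives: Ank2 lost it after correction for length and GC content (0.08, limma adjusted p = 0.36) and without control library 3 and lidocaine library 1 together, and Pkp2 lost it under 9 of 17 alternatives, among them leaving out control library 2 or 3 or lidocaine library 3. The count of 3 became 6 after rescaling, 5 without control library 1 and 1 without control library 3 and lidocaine library 1 together.

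Of 16 cardiac potassium channel genes, 5 rose and 2 fell: Abcc9, a subunit of the ATP-sensitive channel, went from 43.4, 34.8 and 41.3 FPKM to 57.6, 55.4 and 55.1 FPKM (0.49 ± 0.12, limma adjusted p = 0.0048), and its pore partner Kcnj8 fell by 0.21, though not after rescaling (limma adjusted p = 0.12). Kcnj2, the inward rectifier that sets the resting potential, fell from 8.28, 6.80 and 6.83 FPKM to 5.42, 5.11 and 4.75 FPKM (−0.44 ± 0.12, limma adjusted p = 0.010). Hcn4, the main pacemaker channel, was low and rose from 0.74, 0.38 and 0.63 FPKM to 1.35, 1.74 and 1.47 FPKM (0.67 ± 0.18, limma adjusted p = 0.0086). Only 3 potassium channel genes rose without control library 2, without lidocaine library 2, or without control library 3 and lidocaine library 1 together. With all libraries 43.8% of the 16 were called in either direction, near the 37.9% of all tested genes.

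Of 17 tested calcium handling genes, 6 rose, 2 fell and 9 were not called, with a median of 0.10. Atp2a2, the pump that refills the sarcoplasmic reticulum, measured 1465, 1320 and 1339 FPKM in controls and 2465, 2578 and 2222 FPKM after lidocaine (0.82 ± 0.09, limma adjusted p = 1e-05). Slc8a1, the sodium-calcium exchanger of the surface membrane, measured 16.0, 14.7 and 16.1 FPKM against 39.4, 36.7 and 28.6 FPKM (1.10 ± 0.16, limma adjusted p = 0.00012). Ryr2, the release channel, measured 37.8, 39.9 and 36.3 FPKM against 67.6, 65.4 and 56.9 FPKM (0.72 ± 0.12, limma adjusted p = 0.00034). The groups did not overlap for any of the 3 genes. Jph2, which holds the store close to the surface membrane, rose by 0.69 ± 0.06, and the store protein Srl by 0.63 ± 0.06. The calcium sensor S100a1 fell by 0.36. Mean Atp2a2 was 2290 FPKM over the 12 libraries of the other anti-arrhythmic drugs and 2220 FPKM after isoproterenol. Slc8a1 ran from 17.9 to 47.4 FPKM in those 12 libraries and from 22.1 to 25.0 FPKM after isoproterenol, below every lidocaine library.

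Many genes of fuel use were higher, most of them by small steps. Of 30 fatty acid oxidation genes, 17 rose and none fell, with a median of 0.18; the count was 11 without control library 3. Ppara, the nuclear receptor that turns the pathway on, rose from 5.51, 4.84 and 4.99 FPKM to 10.8, 11.2 and 7.43 FPKM (0.80 ± 0.12, limma adjusted p = 0.00012). Pdk4, which blocks glucose carbon from entering the mitochondrion's cycle, measured 110, 119 and 95.1 FPKM in controls and 208, 256 and 159 FPKM after lidocaine (0.92 ± 0.18, limma adjusted p = 0.00088). The enzymes themselves moved less, such as Acsl1 by 0.52 ± 0.08 and Hadha by 0.33 ± 0.05. Of 16 glycogen genes, 10 rose and none fell, with a median of 0.27. Stbd1, which tethers glycogen for breakdown, rose from 7.30, 10.7 and 7.10 FPKM to 20.7, 21.8 and 17.5 FPKM (1.18 ± 0.12, limma adjusted p = 2.6e-06), and the phosphorylase Pygb by 0.55 ± 0.07. Respiratory chain genes gave no single direction, with 5 of 37 higher and 6 lower (median −0.12). The share called, 29.7%, was below the 37.9% of all tested genes. Large catalytic subunits such as Ndufs1 (0.39 ± 0.05) and Sdha (0.37 ± 0.06) were among the 5 and short subunits such as Cox6a2 (−0.30 ± 0.09) among the 6; Cox6a2 lost its call without control library 2 or lidocaine library 1. After correction for transcript length and GC content, 11 were higher and 1 lower, and after rescaling 6 and 0.

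Among sarcomere genes of the adult heart, 9 of 24 rose and 1 fell, or 41.7% called beside 37.9% of all tested genes. Myom1, which links thick filaments at the M line, rose by 0.49 ± 0.07, Mybpc3, a brake on myosin, by 0.35 ± 0.07, and Myh6, the fast heart myosin, by 0.30 ± 0.07. Of 15 fetal and neonatal sarcomere genes, none rose and 3 fell, a share below the 27.1% of all tested genes. That count was 5 without control library 1 and 1 without control library 2, after rescaling, or without control library 3 and lidocaine library 1 together. The members Nppa and Acta1 were not called and ranged from 260 to 1087 FPKM and from 43.1 to 193 FPKM over the 6 libraries. Of 22 heart transcription factors, 10 rose and 2 fell. Srf, the master regulator of muscle genes, rose from 44.4, 36.5 and 40.1 FPKM to 60.7, 64.6 and 66.5 FPKM (0.65 ± 0.07, limma adjusted p = 5.8e-06). Its coactivator Myocd rose by 0.72 ± 0.09, and Hand2, a factor of ventricle formation, by 0.72 ± 0.09. Irx3, a factor of the fast conduction system, fell from 43.4, 39.3 and 42.3 FPKM to 19.9, 19.2 and 29.6 FPKM (−0.86 ± 0.15, limma adjusted p = 0.00048). Of the clock genes, 4 of 19 rose, and Per1 was the largest by far: Bhlhe40 rose by 0.41, Per2 by 0.35 and Cry2 by 0.33, while Bhlhe41 fell by 0.37. The share of clock genes called, 26.3%, was below the 37.9% of all tested genes. Per2 (limma adjusted p = 0.040) lost its call under 8 of 16 alternatives, among them leaving out control library 1 or 2 or lidocaine library 1 or 3, with limma adjusted p-values up to 0.15.

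**Figure D2:**
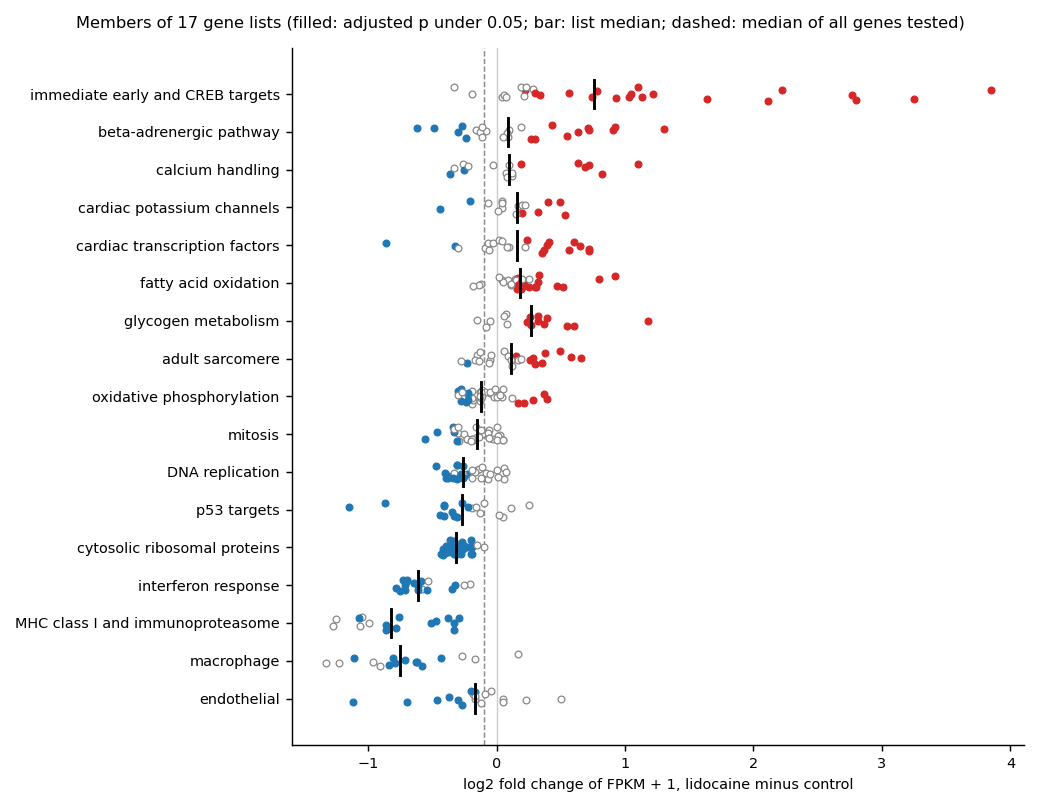
Log2 differences, lidocaine minus control, of the tested members of 17 gene lists, with 1 point per gene (filled where called), a bar at each list's median and a dashed line at the median of all tested genes. The immediate early and CREB list had a median of 0.76 and the MHC class I and immunoproteasome list one of −0.82, against −0.10 over all tested genes.

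More genes were lower than higher in the deposited values, but not after rescaling (2224 higher and 1735 lower). Cxcr4, the receptor for the chemokine Cxcl12 on endothelial cells and leukocytes, measured 14.7, 16.8 and 16.1 FPKM in controls and 4.56, 3.75 and 3.53 FPKM after lidocaine (−1.77 ± 0.14, limma adjusted p = 3e-07). Aplnr, the apelin receptor of growing vessels, measured 86.4, 75.9 and 87.9 FPKM against 37.1, 38.3 and 38.2 FPKM (−1.12 ± 0.13, limma adjusted p = 1.1e-05). For both receptors the libraries of a group lay close together and the groups far apart. Cxcl12 fell by 0.49 and Csf1, the growth factor of macrophages, by 0.79. Pik3ip1, an inhibitor of PI3 kinase, fell from 27.2, 22.1 and 22.1 FPKM to 9.68, 8.74 and 9.78 FPKM (−1.25 ± 0.18, limma adjusted p = 9.6e-05). Gadd45b, a stress gene that slows the cell cycle, fell from 10.2, 12 and 9.88 FPKM to 5.16, 3.08 and 4.80 FPKM (−1.15 ± 0.15, limma adjusted p = 4.5e-05). Acrbp, which binds proacrosin in sperm, and the small GTPase Rasl11b fell by 1.33 and 1.22.
Of 18 endothelial markers, 8 fell, none rose and 10 were not called, and 4 had a positive difference. The median was −0.17, beside −0.10 over all tested genes. After rescaling 5 fell and 1 rose, with a median of −0.08, and 4 fell without control library 3 and lidocaine library 1 together. The transcription factor Sox18 measured 112, 89.7 and 104 FPKM in controls and 65.7, 62.2 and 58.0 FPKM after lidocaine (−0.70 ± 0.09, limma adjusted p = 3.8e-05), and Emcn fell by 0.46. The summed endothelial markers were 1270, 1120 and 1250 FPKM in controls and 981, 1050 and 1130 FPKM after lidocaine. Fewer cells of a type and less RNA per cell cannot be told apart in whole-tissue RNA.

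Among 34 mitosis genes 6 fell and none rose, with a median of −0.16; the share that fell was below the 27.1% of all tested genes called lower. Cks2, a partner of the cell cycle kinase, went from 27.1, 34.9 and 30.3 FPKM to 22.1, 18.8 and 20.8 FPKM (−0.56 ± 0.12, limma adjusted p = 0.0016). Of 33 DNA replication genes 15 fell and none rose (median −0.26); Mcm7, a subunit of the replication helicase, fell by 0.33 and the nucleotide enzyme Tyms by 0.38, with a limma adjusted p of 0.056 for Tyms without control library 2. These counts rested on the scaling and on single libraries: 4 replication genes fell after rescaling, 4 without control library 2, 6 without control library 3, without lidocaine library 1 or without lidocaine library 3, and 1 without control library 3 and lidocaine library 1 together. Mitosis genes fell in 3 cases after rescaling and without those 2 libraries. Of 19 p53 targets 11 fell and none rose (median −0.27; 6 fell and 2 rose after rescaling, 7 fell without the same 2 libraries). Gadd45a, another stress gene of the family, measured 13.1, 16.6 and 12.1 FPKM against 7.00, 7.40 and 6.97 FPKM (−0.87 ± 0.12, limma adjusted p = 7.1e-05). Cdkn1a, the cell cycle inhibitor best known as a p53 target, was not called, with a difference of −0.19.

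The differences ran with transcript length. The genes with a length were split into 10 equal bins. In the bin of the shortest transcripts, 132 to 1190 bases, 633 genes fell and 6 rose, with a median of −0.25. In the bin of the longest, 6102 to 123179 bases, 119 fell and 268 rose, with a median of 0.06. Across the 12055 genes with a length, Spearman's rho between length and difference was 0.39, a description across genes of the same libraries. Cytosolic ribosomal protein genes, with a median transcript of 843 bases, were among the short ones: 28 of 30 fell, none rose, the median was −0.31, and all 30 lay below the controls in every lidocaine library, as 33.7% of all tested genes did. Rpl7 measured 548, 566 and 532 FPKM in controls and 435, 403 and 417 FPKM after lidocaine (−0.39 ± 0.06, limma adjusted p = 0.00025). Of these genes, 16 fell after correction for length and GC content, 12 after rescaling and 18 without control library 2. The part of transcript length in these differences was not tested further.

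**Figure D3:**
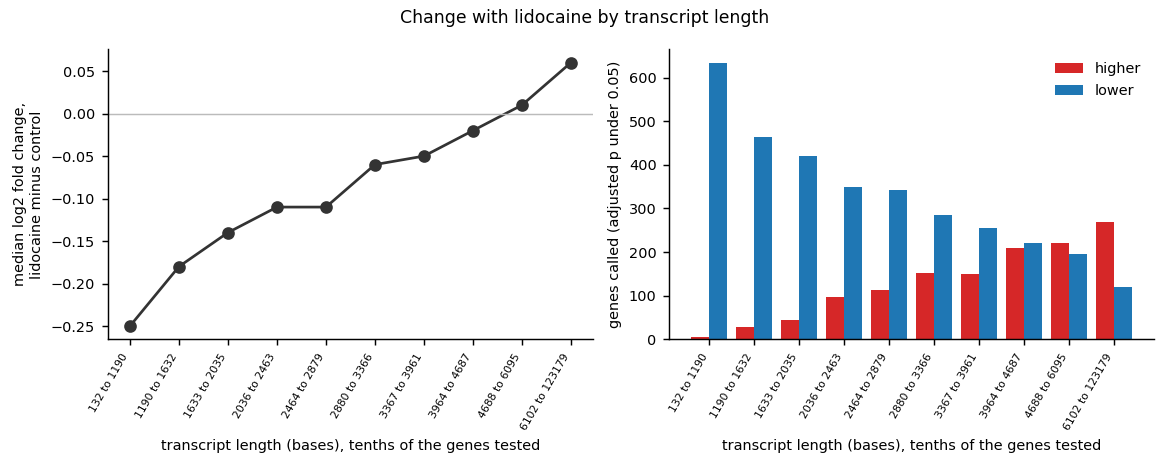
Log2 difference, lidocaine minus control, in 10 equal bins of transcript length, from the shortest to the longest: the median of each bin on the left, and on the right bars for the genes called higher and lower. The median was −0.25 in the shortest bin and 0.06 in the longest.

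Immune genes that were called were lower, with libraries that differed within the groups. Of 18 interferon response genes 14 fell and none rose (median −0.61). Stat2, a carrier of the interferon signal, measured 10.3, 8.19 and 8.10 FPKM in controls and 4.29, 4.34 and 6.03 FPKM after lidocaine (−0.75 ± 0.12, limma adjusted p = 0.00018), and the antiviral enzyme Oas2 fell by 0.73. The interferon count was 6 with only these 2 groups in the fit, 7 without control library 1 or without lidocaine library 2, and 8 without lidocaine library 1. Of 16 genes for MHC class I and the immunoproteasome, which cut and present peptides to T cells, 11 fell and none rose (median −0.82). Psmb9, an immunoproteasome subunit, measured 27.7, 14.1 and 11.3 FPKM in controls and 4.49, 5.52 and 14.9 FPKM after lidocaine (−1.07 ± 0.34, limma adjusted p = 0.020), a call lost without control library 1, lidocaine library 1 or lidocaine library 2 (up to 0.11). B2m, the invariant chain of MHC class I, measured 839, 404 and 400 FPKM against 137, 116 and 631 FPKM and was not called (−1.25, limma adjusted p = 0.056). Lidocaine library 3 lay within the control range for both genes, and control library 1 was the highest. Without lidocaine library 3 all 16 genes fell. The count of 11 became 4 after rescaling, 7 after correction for length and GC content and 6 with no filter on low values or with Y-linked expression in the fit. It was 3 with only these 2 groups and also without control library 1, lidocaine library 1 or lidocaine library 2, or control library 3 and lidocaine library 1 together.

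Of 16 macrophage markers 9 fell and none rose, with a median of −0.75. C1qa, a complement protein that macrophages secrete, measured 66.4, 122 and 78.5 FPKM in controls and 50.4, 37.2 and 57.2 FPKM after lidocaine (−0.84 ± 0.21, limma adjusted p = 0.0055). Ms4a7, a membrane protein of macrophages, measured 4.47, 9.75 and 9.89 FPKM against 3.94, 1.96 and 3.33 FPKM (−1.11 ± 0.23, limma adjusted p = 0.0016). Lyz2, the lysozyme of myeloid cells, overlapped between groups, at 91.8, 276 and 405 FPKM against 182, 41.2 and 84.7 FPKM. The summed macrophage markers, 322, 721 and 799 FPKM in controls and 412, 183 and 303 FPKM after lidocaine, also overlapped: control library 1 was below lidocaine library 1. The count was 5 without control library 2 or without lidocaine library 2. Of 5 platelet markers 4 fell, and none did without control library 2 or without control library 3 and lidocaine library 1 together. Matrix genes depended on control library 1, in which the collagen gene Col1a1 measured 374 FPKM beside 937 and 833 FPKM in the other controls: 5 of 31 fell and 1 rose with it, and 23 fell without it, while none fell without control library 2 or lidocaine library 2. With all libraries 19.4% of matrix genes were called, below the 37.9% of all tested genes. The 1 that rose was Thbs1, a matrix protein with many cell-surface receptors, from 5.00, 11.3 and 15.3 FPKM to 24.8, 22.0 and 22.3 FPKM (1.17 ± 0.30, limma adjusted p = 0.0055).

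The largest falls of all were fast skeletal muscle genes. Tnnc2, a troponin of fast fibres, measured 4.90, 9.57 and 39.5 FPKM in controls and 0.66, 0 and 1.39 FPKM after lidocaine (−3.10 ± 0.78, limma adjusted p = 0.0054). Mylpf, the regulatory light chain of fast myosin, measured 8.65, 14.7 and 62.7 FPKM against 1.35, 0.83 and 3.23 FPKM (−3.02 ± 0.73, limma adjusted p = 0.0040). Control library 3 was the highest for both, several times above the other controls. Of 12 skeletal markers with values, 5 passed the filter and were tested. All 5 fell, 2 did without control library 3, and none did without control library 3 and lidocaine library 1 together, where the limma adjusted p was 0.064 for Tnnc2 and 0.062 for Mylpf. Among the 5, Myh8 (0.14 to 0.58 FPKM after lidocaine) passed the filter through the controls alone, so its fall follows in part from the filter. Summed skeletal markers were 25.4, 46.4 and 184 FPKM in controls and 5.35, 6.23 and 10.6 FPKM after lidocaine. Tnnt3, Myh3, Myh8, Tnni2 and Myl1 were also among the 15 largest falls; all but Myh3 lost their calls without control library 3, and all did without both libraries. Myh3, at 0.04 to 0.32 FPKM after lidocaine, likewise passed the filter through the controls alone. The part of skeletal muscle RNA in the other differences was not tested.
Of 9 epicardial and mesothelial markers 4 rose, among them Wt1 (0.47 ± 0.11, limma adjusted p = 0.0031) and Msln (1.37 ± 0.49, limma adjusted p = 0.034), whose call was lost without any 1 of control libraries 1 and 3 and lidocaine libraries 2 and 3 (limma adjusted p up to 0.15). That count was 1 without control library 3, without lidocaine library 2 or without control library 3 and lidocaine library 1 together, and 2 without control library 1, without lidocaine library 3 or with no filter.

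**Figure D4:**
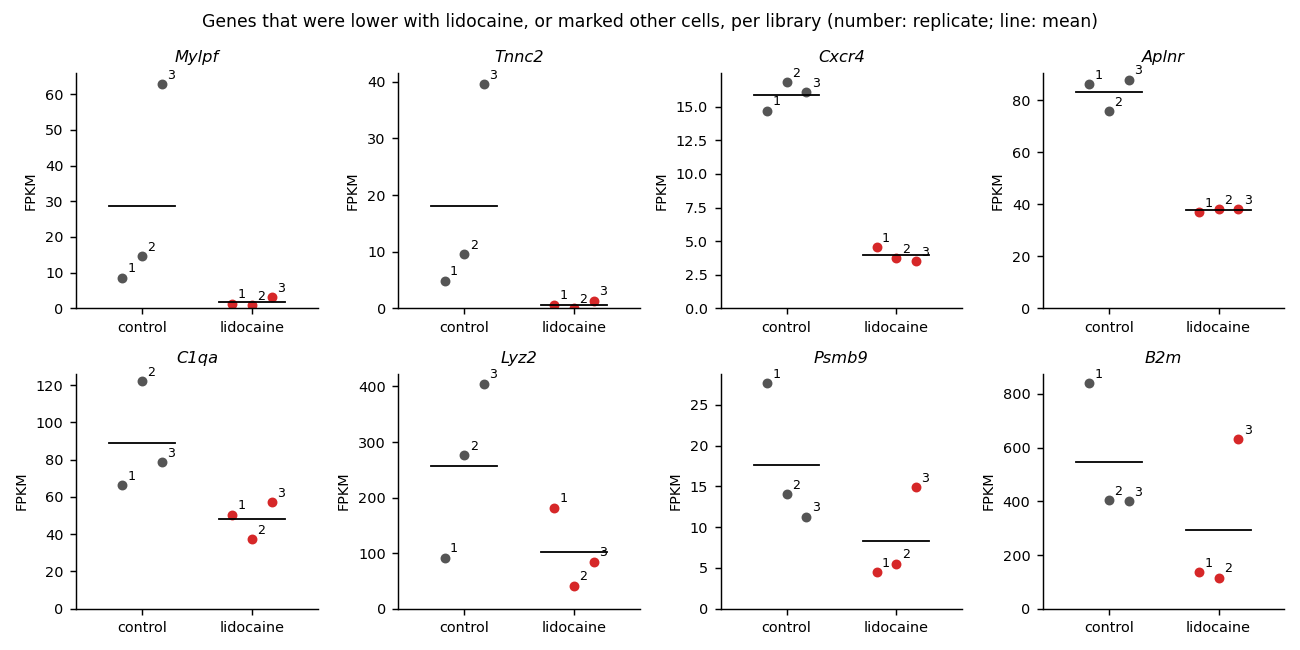
FPKM of Mylpf, Tnnc2, Cxcr4, Aplnr, C1qa, Lyz2, Psmb9 and B2m in the 3 control and 3 lidocaine libraries on linear axes, with 1 numbered point per library and a line at each group's mean. Cxcr4 and Aplnr separate the groups tightly, Mylpf spans 8.65 to 62.7 FPKM within the controls, and B2m in lidocaine library 3, at 631 FPKM, lies among the controls.

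The heart origin of the libraries was clear, with summed cardiomyocyte markers of 45900 to 50400 FPKM in the 6 libraries. The atrial light chain Myl7 measured 0.10 to 2.83 FPKM, but the summed atrial list, which includes Nppa, ran from 290 to 1150 FPKM. Summed liver markers were 11 to 23.7 FPKM and summed lung markers 2.24 to 13.3 FPKM. The liver gene Alb stayed at or under 0.17 FPKM, and the lung gene Sftpc was listed at 0 in 5 libraries and at 9.10 FPKM in lidocaine library 1. Summed Y-linked genes were 39.2, 46.6 and 0.98 FPKM in controls and 0.96, 42.5 and 1.31 FPKM after lidocaine, so 2 of 3 control and 1 of 3 lidocaine libraries carried these transcripts at over 30 FPKM; 4322 genes were called with Y-linked expression in the fit. Correlations of log2 values were 0.988 to 0.993 within the groups and 0.974 to 0.987 between them, and a first principal component with 59.1% of the variance placed the controls at −21.8 to −8.71 and the lidocaine libraries at 12 to 23.8. In total 1312 genes rose and 3302 fell; 44 rose and 37 fell by at least 1. Rescaled so that the typical gene was level (median of ratios), 2224 rose and 1735 fell and the median became −0.01, so the excess of falls depended on the scaling. Lidocaine values lay wholly above the controls for 1867 genes (15.3%) and wholly below for 4103 (33.7%). Without control library 3 and lidocaine library 1 together, 891 rose and 2128 fell. Library totals were 537663 to 551292 FPKM in controls and 500899 to 509471 FPKM after lidocaine, and read depth is not known because no counts were used.

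To set lidocaine beside other drugs, its libraries were compared with the mean of the amiodarone, metoprolol, propranolol and ivabradine groups, a contrast that uses no control library. Amiodarone blocks several ion channels, metoprolol and propranolol block beta receptors, and ivabradine blocks the pacemaker current. Of 12170 genes, 18 were called (0.148%), 14 higher and 4 lower after lidocaine, and 867 had an unadjusted p under 0.05. Rgs2, Pde4d and Pde4b, brakes on cyclic AMP or G protein signalling, were among the 14. Of the 25 tested genes of the beta-adrenergic pathway only 3 were called in this contrast, with a list median of 0.02. Sik1, a brake on CREB, was not called (limma adjusted p = 0.055). Rgs2 measured 24.4, 30.3 and 32.7 FPKM after lidocaine and 15.6 to 25.0 FPKM, with a median of 19.4 FPKM, in the 12 other libraries (0.54 ± 0.07, limma adjusted p = 0.0030). Pde4d measured 9.22, 9.42 and 7.99 FPKM against 4.55 to 8.40 FPKM, with a median of 5.69 FPKM (0.52 ± 0.07, limma adjusted p = 0.0030). Pde4b measured 26.6, 28.7 and 25.6 FPKM, above all 12 other libraries at 16.8 to 23.7 FPKM (0.39 ± 0.07, limma adjusted p = 0.022). The lidocaine range was thus clear of the others for Pde4b. For Rgs2, metoprolol library 2 and ivabradine library 3 reached it, and for Pde4d ivabradine libraries 2 and 3.

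Tmem100 measured 30.8, 41.1 and 37.9 FPKM against 15.8 to 37.2 FPKM, with a median of 19.1 FPKM (0.78 ± 0.11, limma adjusted p = 0.0036). Nr4a3 measured 5.92, 13.6 and 6.36 FPKM against 0.64 to 10.1 FPKM, with a median of 2.00 FPKM (1.48 ± 0.28, limma adjusted p = 0.043). Gem measured 8.50, 15.9 and 11.0 FPKM against 2.62 to 12.4 FPKM, with a median of 4.73 FPKM (1.09 ± 0.19, limma adjusted p = 0.024). For each of these, 11 of the 12 other libraries lay below the lowest lidocaine library. Slc7a1, a transporter of basic amino acids, was higher by 0.46 ± 0.07 and Maff by 0.43 ± 0.08. Siah2, a ubiquitin ligase, was higher by 0.59 ± 0.10, the small GTPase Rasd1 by 0.76 ± 0.15 and the exchange factor Rasgef1b by 0.65 ± 0.13. Noct, a clock-linked phosphatase, and the corepressor Irf2bp2 were higher by 0.51 and 0.37. These 7 had limma adjusted p-values between 0.018 and 0.043.

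The 4 lower genes differed by smaller steps. Rasl12, a small GTPase of the Ras family, measured 6.36, 5.47 and 6.22 FPKM after lidocaine, below all 12 other libraries at 6.77 to 8.86 FPKM (−0.31 ± 0.06, limma adjusted p = 0.043). Lsmem2, a membrane protein, measured 9.67, 10.3 and 10.3 FPKM against 9.12 to 18.3 FPKM (−0.47 ± 0.09, limma adjusted p = 0.043). Ggta1, which builds the alpha-gal sugar, was lower by 0.32, and Mrpl49, a mitochondrial ribosomal protein, by 0.26. The lidocaine mean was above all 5 other drug means for the 14 higher genes and below them all for the 4 lower genes. These genes were chosen by their difference from 4 of those 5 groups, so the order follows in part from that choice. For Noct the means were 24.6 FPKM after lidocaine and 24.5 FPKM after ivabradine. Nr4a1 was not called here: its mean was 56.3 FPKM over the 12 libraries, which ran from 13.4 to 133 FPKM (limma adjusted p = 0.11).

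**Figure D5:**
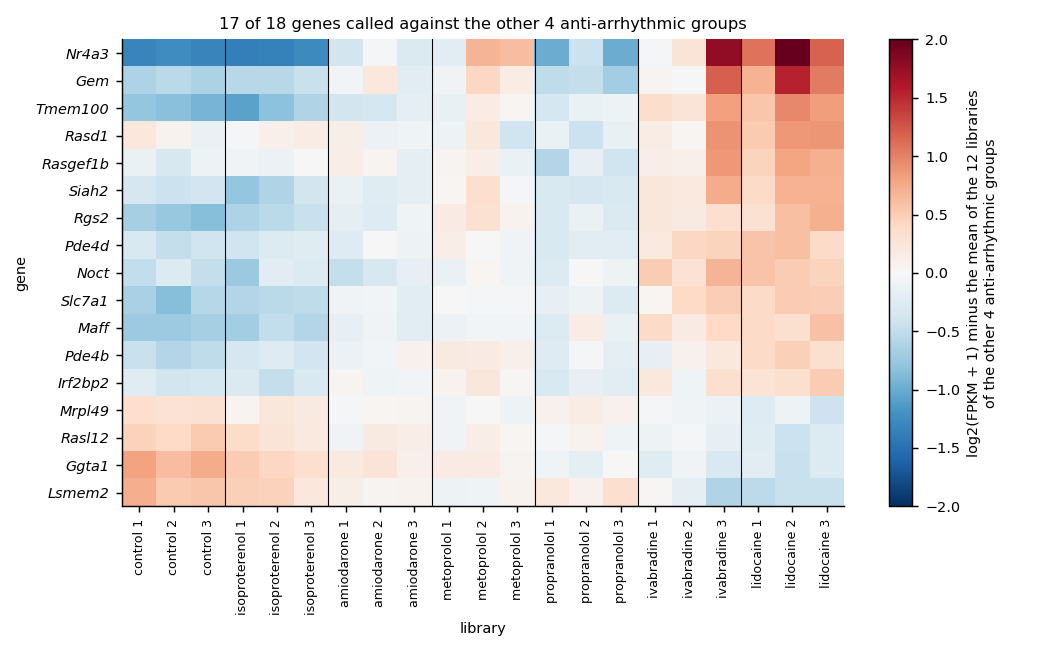
Heatmap of 17 of the 18 genes called between lidocaine and the mean of the other 4 anti-arrhythmic drugs, in all 21 libraries, coloured by log2(FPKM + 1) minus the gene's mean over the 12 libraries of those 4 drugs. The column of ivabradine library 3, which lay within or past the lidocaine range for 16 of the 18 genes, resembles the 3 lidocaine columns.

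One library of another group bore on this contrast. Ivabradine library 3 lay within the lidocaine range or past it for 16 of the 18 genes, ivabradine library 1 for 4, ivabradine library 2 for 2, metoprolol library 2 for 1 and the other 8 libraries for none. Without ivabradine library 3, 59 genes were called. The number also depended on the lidocaine libraries: 9 genes were called without library 1, none without library 2 (635 at an unadjusted p under 0.05) and 2 without library 3. All 18 genes kept their direction under every setting in which they were tested.

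Drug by drug, the number of genes that differed from lidocaine ranged from 0 to 2036. The Y-linked gene Ddx3y measured 0, 9.46 and 0.01 FPKM after lidocaine and 0.01 to 0.05 FPKM after isoproterenol. It measured 7.29 to 8.30 FPKM after amiodarone and 7.17 to 8.82 FPKM after propranolol. In libraries 1 to 3 it was 0.01, 0.01 and 8.66 FPKM after metoprolol and 8.32, 0 and 9.83 FPKM after ivabradine. The part of sex in these counts was not tested. No gene was called against metoprolol (0% of those tested; 711 at an unadjusted p under 0.05, smallest limma adjusted p = 0.088) or against ivabradine (0%; 919 and 0.48), which does not show that the drugs act alike. Against amiodarone 58 genes were called (0.477%), 37 higher and 21 lower, and the count fell to 19 without lidocaine library 1 and 9 without lidocaine library 2. Against propranolol 80 were called (0.657%), 57 higher and 23 lower, with 34 without lidocaine library 2, 48 without library 3 and 53 without library 1. Against isoproterenol, which stimulates beta receptors, 2036 were called (16.7%), 1118 higher and 918 lower, and 1315 without lidocaine library 1. Isoproterenol library 3 held the atrial Myl7 at 176 FPKM, beside 1.27 and 2.59 FPKM in libraries 1 and 2. Amiodarone library 2 held the lung gene Sftpc at 222 FPKM, beside 0.07 and 0 FPKM in libraries 1 and 3. The part of RNA from other tissue in these counts was not tested.
Nr4a1 measured 83.6 to 171 FPKM after lidocaine, 45.9 to 114 FPKM after metoprolol, 29.4 to 133 FPKM after ivabradine, 48.3 to 82.2 FPKM after amiodarone, 13.4 to 21.6 FPKM after propranolol and 14.5 to 19.3 FPKM after isoproterenol. Lidocaine therefore overlapped metoprolol and ivabradine for this gene and lay above all amiodarone, propranolol and isoproterenol libraries. Pde4d measured 4.2 to 4.80 FPKM after isoproterenol and 4.55 to 4.86 FPKM after propranolol, near the controls, and 6.88 to 8.40 FPKM after ivabradine. Cxcr4 was below the controls under the other 4 anti-arrhythmic drugs, at 2.78 to 6.95 FPKM, beside 3.53 to 4.56 FPKM after lidocaine and 8.23 to 9.38 FPKM after isoproterenol.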

How the data were processed

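RNA from the heart apex of resected mice had been sequenced on a BGISEQ-500 instrument, per the labels' protocols, after selection by oligo dT or by depletion of ribosomal RNA; the labels do not say which. The authors deposited FPKM values for 18762 genes in 21 libraries, all mapped to samples by title (0 columns left over); FPKM divides fragment counts by transcript length and library total. The submitters' processing notes name HISAT, Bowtie2 2.2.5 and mm9 without their roles. No counts were used, so the depth per library and its counting error are not known.

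Groups came from the labels, with 3 libraries each. Values were taken as log2(FPKM + 1), a scale that understates changes of low genes, for genes with at least 1 FPKM in 3 of the 6 lidocaine and control libraries. A gene could pass through 1 group alone, as Nr4a3 and Hcn4 did through lidocaine and Myh3, Myh8 and Oas2 through the controls. The direction of such a gene follows in part from the filter. limma 3.58.1 in R 4.3.3 fitted 1 mean per group to all 21 libraries (7 groups, 14 residual degrees of freedom, mean-variance trend), with Benjamini-Hochberg adjustment over 12170 genes and a threshold of 0.05; fold changes are on the log2 scale. The fit was tested on simulated data. Transcript length and GC content came from the GENCODE mouse annotation, build GRCm38, matched by the RefSeq transcript of the deposited table (17783 genes) or by Entrez ID (366), leaving 613 without; promoter windows matched 9707 tested genes by Entrez ID and carry the RefSeq build GRCm38.p6, not that of the deposited values.

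The genes compared and the 31 function and 16 marker lists were chosen with earlier results of these data known. Named genes are the 15 largest rises and 15 largest falls whose groups did not overlap, the 8 largest differences each way from the other 4 anti-arrhythmic groups, up to 4 members of smallest p per list, and the sodium channel subunits. Slc7a1, Noct and Irf2bp2, and the further list members named, were chosen after their values were seen. Some genes that this rule names are not reported here. Alternatives were a pseudocount of 0.1, no filter or a filter of 5 FPKM, rescaling by median of ratios, fits of fewer groups, no trend, robust moderation, a replicate block, a Y-linked covariate, libraries left out and, chosen after seeing the data, a spline correction for transcript length and GC content and the removal of libraries of other drugs.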

Additional observations from a re-analysis of the deposited data

How the results depend on the processing

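Lidocaine against control gave 4614 calls, and 3699 to 4587 with another pseudocount, filter, trend, moderation or with only these 2 groups, 3257 to 4360 without 1 library, and 4357 after the length and GC correction. Rescaled, 2224 genes were higher and 1735 lower. Without control library 3 and lidocaine library 1 together, 3019 were called, 2128 of them lower. Against the other 4 anti-arrhythmic groups, 18 became 3 with no filter, 32 with a filter of 5 FPKM, 8 with the 15 anti-arrhythmic libraries alone, 9 with no trend, and 0 to 59 without 1 library. Without 1 lidocaine library, 1315 to 1622 genes were called against isoproterenol, 9 to 62 against amiodarone and 34 to 53 against propranolol. The length and GC correction gave 93 against amiodarone. Against metoprolol 0 became 1 without lidocaine library 1, and against metoprolol and ivabradine it became 1 after that correction. The cause of these shifts was not tested.

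Same-numbered libraries of different groups had residual correlations from −0.55 to 0.30, with a median of −0.02. Libraries of different number were not set beside them, so these values cannot decide whether replicate numbers pair the libraries. With a replicate block, 4416 genes were called against control and 29 against the other 4 groups. Of 172 genes followed singly, 160 were called against control, 120 of them under every setting; none of those called changed direction, and Scn10a, not called, went from −0.02 without control library 2 to 0.32 without lidocaine library 1. With 3 libraries a group, each group mean rests on few values. The spread of each gene was pooled over all 21 libraries (14 residual degrees of freedom), so it also drew on groups outside a comparison.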
